A study of Mus musculus with 8 samples.

Results

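Slits, netrins and semaphorins are secreted or membrane-bound proteins that steer growing axons and migrating cells, and Robo, Dcc, Unc5, neuropilin and plexin proteins are the receptors that read them. Here the nuclear RNA of all these genes was followed through the cell types of the mouse striatum and through 8 inbred strains. Genes were taken by symbol from the 32285 rows of the count matrices: 53 rows matched, of which 29 code for ligands, 21 for receptors and 3 are RNAs antisense to the receptor gene Plxna4. The ligands are 3 Slits, 4 netrins, 2 netrin-Gs and 20 semaphorins (7 of class 3, 6 of class 4, 2 of class 5, 4 of class 6 and 1 of class 7). The receptors are 9 plexins, 2 neuropilins, 4 Robo and 4 Unc5 genes, Dcc and its relative Neo1.

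The mice were 12 weeks of age and came from 5 laboratory strains, NOD/ShiLtJ, NZO/HlLtJ, 129S1/SvImJ, C57BL/6 and A/J, and from WSB/EiJ, PWK/PhJ and CAST/EiJ, which descend from mice caught in the wild. No strain was treated, none carries an engineered allele and none is labelled as a control, so each strain was set against the other 7. The striata were frozen, and nuclei were pooled in 4 batches, each with 1 mouse per strain and as many male as female mice, so a strain is represented by 4 mice and 32 mice were profiled in all. C57BL/6 is written C57BL/6NJ in the deposited table and C57BL/6J in the series' design text, and which substrain was used cannot be told apart. RNA was counted in nuclei with the 10x Multiome assay, so unspliced transcripts of long genes are part of every value.

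In the netrin branch, Dcc is the receptor through which netrin attracts axons, Unc5 receptors turn the response to repulsion, and Robo receptors bind Slits, which repel axons from the midline. Class 3 semaphorins are secreted and mostly act through a neuropilin paired with a plexin; Sema3e is an exception that binds Plxnd1 directly. In the adult brain the same families remain in use at synapses, in oligodendrocyte precursors and in blood vessels, and netrin-Gs are membrane-anchored proteins that bind synaptic partners of the NGL family and not Dcc.

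The authors annotated 55672 nuclei in 18 clusters. Drd1+ neurons (15395 nuclei) and Drd2+ neurons (13203) are the projection neurons of the direct and the indirect pathway of the striatum, followed by oligodendrocytes (12066), astrocytes (4748) and macrophages (2638). The batches held 11826 to 15626 annotated nuclei with a median of 3232 to 4931 UMIs, batch 3 being the shallowest, and any pair of batches shared 188 to 328 barcode sequences. Defining markers mostly followed the names of the clusters, in CPM (counts per 1e+06 counts of the cluster): Drd1 reached 225 in Drd1+ neurons, Drd2 429 in Drd2+ neurons, Slc1a2 6376 in astrocytes, P2ry12 1570 in macrophages and Flt1 2506 in endothelium. The second Drd1+ cluster (1506 nuclei) had Otof at 220, a marker of eccentric projection neurons. Against the labels, Rgs5, a mural gene, reached 1541 in endothelium and 394 in mural cells, and the precursor marker Pdgfra was highest in fibroblasts and not in the cluster named Polydendrocyte/Oligodendrocyte. Of the Drd1+ neuron markers, Tac1 was highest in the second Drd1+ cluster (624) and Isl1 in Chat+ interneurons (155). Th, listed for eccentric neurons, was highest in Nxph1+ interneurons (7.92), and the projection neuron marker Ppp1r1b in Unknown_2 (233). The cluster named Unknown held Dcx at 332, Sox11 at 449 and Top2a at 322, genes of newborn and dividing cells. Oligodendrocyte markers summed to 4240 to 5148 CPM by strain in macrophages and 3596 to 4181 in astrocytes, against 20032 to 22747 in oligodendrocytes, and their part in the results was not tested.

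The sequence just upstream of the annotated start is shown for 4 members with a RefSeq start whose levels differed between strains or cell types in what follows: the ligands Ntn4, Sema3d and Sema3e and the receptor Unc5c. Sequences are from RefSeq on GRCm38.p6, 5′ to 3′, all 4 on the plus strand. Capitals mark the GC box GGGCGG, or CCGCCC where it lies on the other strand. The windows are chr10:93640799-93641048 for Ntn4, chr5:12382916-12383160 for Sema3d, chr5:14025026-14025275 for Sema3e and chr3:141465314-141465563 for Unc5c.
Ntn4: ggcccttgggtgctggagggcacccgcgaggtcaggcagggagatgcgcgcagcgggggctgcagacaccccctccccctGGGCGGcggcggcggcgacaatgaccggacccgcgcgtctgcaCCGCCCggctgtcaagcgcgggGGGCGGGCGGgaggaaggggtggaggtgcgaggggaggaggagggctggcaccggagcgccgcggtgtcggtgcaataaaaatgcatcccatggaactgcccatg
Sema3d: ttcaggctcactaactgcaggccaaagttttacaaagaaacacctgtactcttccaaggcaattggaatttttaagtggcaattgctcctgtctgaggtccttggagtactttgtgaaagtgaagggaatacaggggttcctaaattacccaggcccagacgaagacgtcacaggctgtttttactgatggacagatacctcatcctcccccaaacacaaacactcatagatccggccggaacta
Sema3e: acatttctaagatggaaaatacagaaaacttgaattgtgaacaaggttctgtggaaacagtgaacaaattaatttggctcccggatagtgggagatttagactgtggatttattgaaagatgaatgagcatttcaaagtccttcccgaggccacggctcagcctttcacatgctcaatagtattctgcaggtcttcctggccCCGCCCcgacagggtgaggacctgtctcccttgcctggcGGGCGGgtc
Unc5c: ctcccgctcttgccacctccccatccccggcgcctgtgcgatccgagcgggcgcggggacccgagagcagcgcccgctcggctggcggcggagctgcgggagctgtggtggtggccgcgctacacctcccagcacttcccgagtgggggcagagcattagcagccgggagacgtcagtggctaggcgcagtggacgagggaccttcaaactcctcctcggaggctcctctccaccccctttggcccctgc

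Counting overlapping matches, the Ntn4 window holds 4 GC boxes, the Sema3e window 2, and those of Sema3d and Unc5c none. G and C make up 73.2% of the Ntn4 window, 71.2% of the Unc5c window, 48.0% of the Sema3e window and 46.1% of the Sema3d window. Over all members, 41 had a RefSeq start; 36 of their 54 starts (66.7%) had the motif in the 250 bases upstream, against 10756 of 32851 starts of all genes (32.7%). The median G and C content of these windows was 64.2% for members and 52.4% for all genes, so base composition differed as well. A peak of the authors' list of 291715 accessible regions overlapped the window of 32 of the 54 member starts (59.3%) and of 51.7% of all starts. Of the windows printed above, that of Unc5c overlapped 1 peak and the others none; the nearest peak centres lay 524, 711 and 894 bases downstream of the starts of Ntn4, Sema3d and Sema3e. The list pools all strains and cell types, and a motif match is not a bound site.

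Members were then placed in the cluster where their level was highest, as the mean ± SD of CPM over the 4 batches. This is a description without a test, since the clusters were made from the same counts. The highest cluster was neuronal for 17 members, non-neuronal for 27 and one of the 2 clusters named Unknown for 9. Among ligands it was neuronal for 10 and non-neuronal for 14, and among receptors for 6 and 12. Some placements rest on few counts, such as 2 for Robo3 in Unknown_2 and 3 for Ntn3 in fibroblasts. The split over all genes is not given here. In their highest cluster 36 members had at least 100 counts. Of all 53 members, 19 stayed above the second cluster in all 4 batches, 10 of them ligands and 9 receptors. Among these only the receptor Plxna3 had fewer than 100 counts in its highest cluster (88).

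Of the secreted ligands, Slit3 was broad in projection neurons, at 1142 ± 95.2 CPM in Drd2+ and 1012 ± 73.5 in Drd1+ neurons. Slit1 was highest in the cluster Unknown (222 ± 29.1, against 102 ± 18.4 in Chat+ interneurons, the second). Slit2 was highest in Unknown_2, a cluster of 57 nuclei, with a wide spread of 655 ± 430.

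The second Drd1+ cluster led for 5 ligands. There the netrin-G Ntng1 stood at 748 ± 66.6 CPM against 341 ± 112 in Sst+ interneurons, and Sema3e at 574 ± 73.2 against 247 ± 29.9 in the second Slc17a7+ cluster. Sema6d, a membrane-bound semaphorin, was at 1003 ± 84.5, Sema5b at 324 ± 18.4 and Sema3a, which repels axons through Nrp1, at 148 ± 15.5. Sema3a in Drd1+ neurons (117 ± 13.5) lay closest to this. The other netrin-G, Ntng2, marked a different neuron: it was at 139 ± 12.6 in the second Slc17a7+ cluster of excitatory neurons and at 34.9 ± 13.1 in the next cluster.

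In the cluster Polydendrocyte/Oligodendrocyte 5 ligands with at least 100 counts there peaked. Sema5a was at 859 ± 151 CPM against 207 ± 37.5 in the first Slc17a7+ cluster, Sema4d at 314 ± 36.8 against 181 ± 17.0 in macrophages, and Sema6a at 411 ± 65.4 with oligodendrocytes close behind (336 ± 29.9). Sema3d reached 280 ± 33.1, and Ntn1, the classical Dcc ligand, 99.5 ± 21.5 with Sst+ interneurons close to it (79.3 ± 13.1). Endothelium led for Sema3c (408 ± 170), Sema7a, a semaphorin held by a lipid anchor (157 ± 54.8 against 38.2 ± 6.16), and Sema3g (42.0 ± 13.8). Some class 4 semaphorins had no clear highest cluster. Sema4a was level in astrocytes (60.8 ± 3.14) and the first Slc17a7+ cluster (59.5 ± 19.4), and Sema4g in macrophages (33.5 ± 6.61) and Sst+ interneurons (31.2 ± 18.01). Sema4b was at 77.6 ± 10.96 in astrocytes and 60.8 ± 13.5 in the cluster Unknown, not separated in every batch.

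Of the receptors, Dcc was nearly equal in both large projection neuron clusters (3336 ± 185 in Drd1+, 3171 ± 177 in Drd2+). Robo1 was highest in the second Drd1+ cluster (3733 ± 116) and next in Chat+ interneurons (3200 ± 414), and Robo2 was highest in Chat+ interneurons (3498 ± 803 against 1802 ± 416 in the cluster Unknown). Robo4, the Robo of blood vessels, stood at 94.7 ± 37.6 in endothelium and at most 3.92 elsewhere. The 4 netrin receptors of the Unc5 family did not all have the same highest cluster. Unc5c was about level in oligodendrocytes (1249 ± 35.6) and the polydendrocyte cluster (1208 ± 163), Unc5b peaked in oligodendrocytes (88.2 ± 7.41), Unc5d in Sst+ interneurons (760 ± 105) and Unc5a in the second Slc17a7+ cluster (62.4 ± 11.6 against 24.9 ± 2.43). Neo1 was also highest in oligodendrocytes (435 ± 18.8) and second in astrocytes (379 ± 16.6).

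The plexins also differed in their highest cluster. Plxnb3 was highest in oligodendrocytes (141 ± 17.5, with 117 ± 35.9 in the polydendrocyte cluster), Plxnb1, the Sema4d receptor, in astrocytes (123 ± 7.98 against 47.5 ± 7.05 in ependyma), Plxnb2 in ependyma (100 ± 21.3, with 68.7 ± 3.33 in macrophages) and Plxnd1 in endothelium (45.8 ± 3.56 against 24.5 ± 1.70 in Drd1+ neurons). Plxna4 was level in the cluster Unknown (590 ± 190) and the second Slc17a7+ cluster (553 ± 26.5). In macrophages it was at similar or higher levels in mice outside PWK/PhJ, over TMM-scaled totals, as given below. The order of clusters thus depends on the strains pooled. Plxna4os1, an antisense RNA, lies within the span of Plxna4, and reads of the pair cannot be told apart, since strand use in the counting was not given in the sources used here. Nrp1 was highest in the first Slc17a7+ cluster (212 ± 28.2) and overlapped with endothelium (173 ± 63.5).

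**Figure D1:**
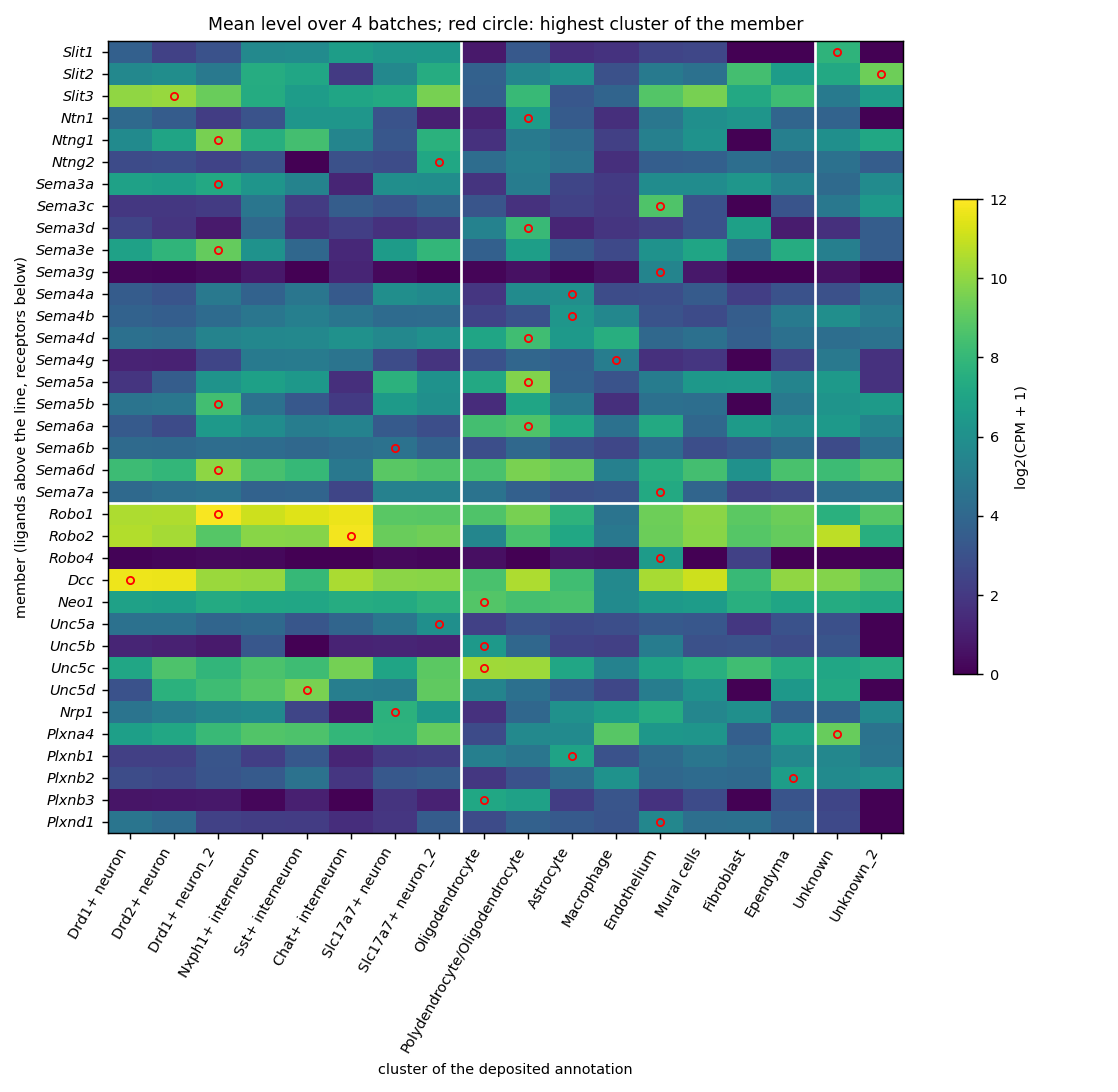
Heat map of the mean level, log2(CPM + 1), of the 36 members with at least 100 counts in their highest cluster (rows) in the 18 clusters (columns); circles mark the highest cluster of each row. The second Drd1+ cluster holds the peak of Ntng1, Sema3e, Sema5b and Sema6d, the polydendrocyte cluster that of Sema5a and Sema4d, and Robo4 is bright in endothelium alone.

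Levels of different genes were compared only per length. In Drd1+ neurons, per kilobase of RefSeq gene span, Dcc had 3.07 CPM, Slit3 1.73, Robo1 1.40, Plxna2 1.19, Robo2 1.02, Ntn3 0.991 and Sema6b 0.957, while Sema3e had 0.486, Unc5c 0.377, Plxna4 0.244, Nrp1 0.169, Ntn4 0.126, Sema3d 0.0221 and Unc5d 0.0124. On this scale the receptors Dcc, Robo1 and Plxna2 and the ligand Slit3 stood highest of the members with coordinates, and Robo2, Ntn3 and Sema6b followed at nearly one level. In GRCm38, Dcc spans chr18:71253613-72351228, Robo1 chr16:72027518-73047491, Robo2 chr16:73891976-75447443, Slit3 chr11:35121456-35708507, Plxna4 chr6:32144543-32588192, Nrp1 chr8:128358591-128505476 and Unc5d chr8:28646717-29219671. Ntn4 spans chr10:93641049-93745972, Sema3d chr5:12383161-12588953, Sema3e chr5:14025276-14256689 and Unc5c chr3:141465564-141834924.

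Drd2+ and Drd1+ neurons of the same mouse were compared in all 32 mice, as a difference of log2 CPM and again without a test. Among members with the same direction in all 32 mice, the netrin receptors Unc5d and Unc5c differed most. Unc5d ranged from 2.74 to 14.7 CPM (median 6.64) in Drd1+ neurons and from 90.5 to 359 (median 197) in Drd2+ neurons. The lowest Drd2+ library lay above the highest Drd1+ library, and the log2 difference was 4.74 ± 0.61 (SD, n = 32). Unc5c averaged 404 CPM in Drd2+ and 139 CPM in Drd1+ neurons, a log2 difference of 1.58 ± 0.22. The ligands Ntng1 (135 against 55.8 CPM, 1.42 ± 0.49) and Sema3e (1.10 ± 0.44) were also higher in Drd2+ neurons, as were Plxna4 (0.46 ± 0.17) and Slit3 (0.21 ± 0.09).

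These 6 members were higher in Drd2+ neurons in every mouse, 6 of 41 members measured, while 1.78% of all 13791 genes were. In the other direction, Plxna2 (-0.42 ± 0.15) and Robo2 (-0.23 ± 0.08) were higher in Drd1+ neurons in every mouse, as were 1.68% of all genes. Slit1 (-1.33 ± 0.62, 31 of 32 mice) and Ntn4 (-1.64 ± 1.38, 28 of 32 mice) also leaned to Drd1+ neurons, and Sema5a (1.59 ± 0.91, 30 of 32 mice) to Drd2+ neurons. On their lower side these genes averaged few CPM: Slit1 3.99 and Ntn4 2.58 in Drd2+ neurons, and Sema5a 2.68 in Drd1+ neurons. The pathways hardly differed in the abundant receptors Dcc (-0.04 ± 0.06) and Robo1 (0.10 ± 0.08, higher in Drd2+ neurons in 29 mice). The median difference was -0.05 over the members and -0.01 over all genes.

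**Figure D2:**
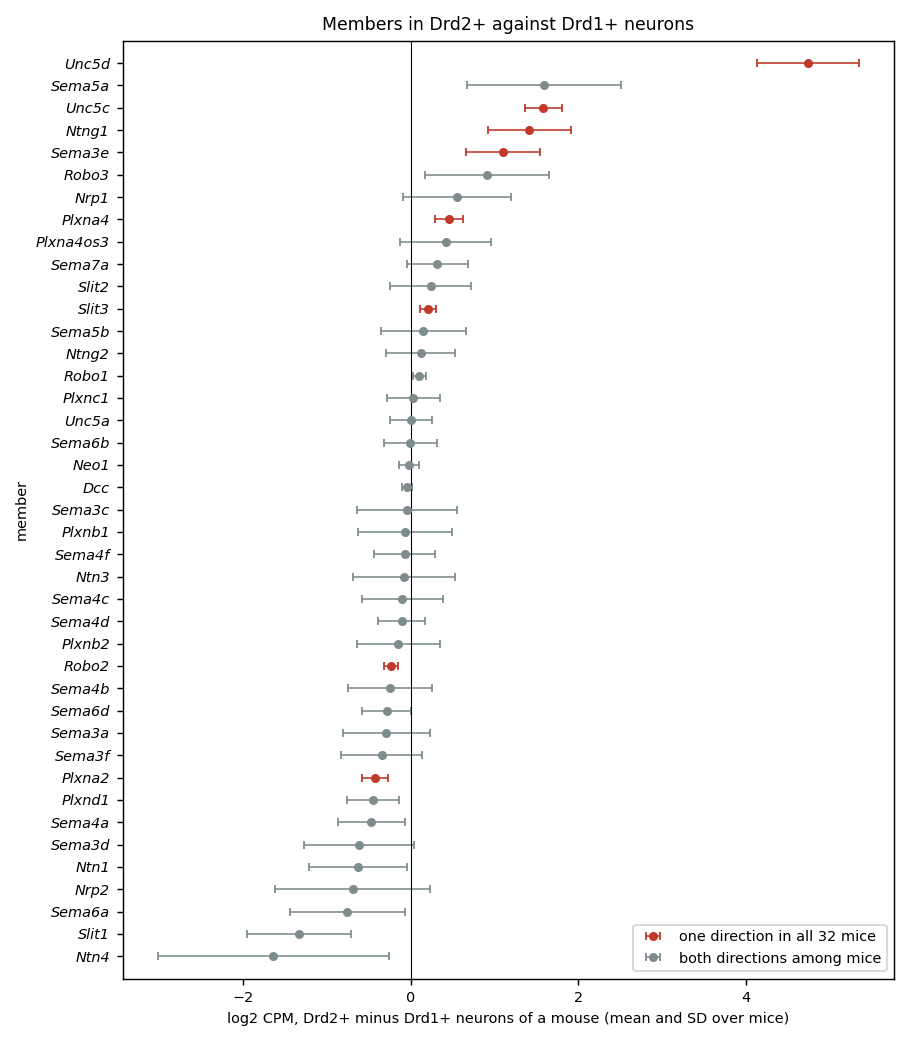
Difference of log2 CPM, Drd2+ minus Drd1+ neurons of the same mouse, as mean and SD over 32 mice for 41 members; red marks members with the same direction in all 32. Unc5d, at 4.74, lies apart from Unc5c, Ntng1 and Sema3e, and Dcc and Robo1 sit near 0.

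Strain was tested within a cluster on counts summed per mouse, with batch in the model (edgeR quasi-likelihood F test, Benjamini-Hochberg over all genes of the cluster, called at an adjusted p under 0.05). In Drd1+ neurons 32 of 41 tested members were called, 19 of 24 ligands and 13 of 16 receptors, where 61.7% of all genes were called; 12 members were too low to be tested. In Drd2+ neurons it was 30 of 39 (16 of 23 ligands, 14 of 15 receptors), where 55.9% of all genes were called. In oligodendrocytes 19 of 23 members were called, 9 of 12 ligands and 10 of 11 receptors, against 34.8% of all genes. The median F of members and of all genes was 4.66 and 3.38 in Drd1+ neurons, 5.18 and 2.95 in Drd2+ neurons, and 7.59 and 1.75 in oligodendrocytes. Members that pass the filter on low counts are among the better measured genes, so these shares are not set against matched genes. Some tested members passed this filter only through a strain in which they were high. They were Slit2, Sema3c, Sema3e and Plxna2 in oligodendrocytes, and Sema3d and Ntn4 in Drd2+ neurons.

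Fewer members were called in smaller clusters. Astrocytes had 10 of 20 (21.5% of all genes) and macrophages 3 of 7 (24.8%). The second Drd1+ cluster had 12 of 24 (17.3%). In endothelium 2 of 20 were called by edgeR (3.23%), with 11 at an unadjusted p under 0.05. In Nxph1+ interneurons 0 of 20 were called by edgeR (1.53%), with 4 at an unadjusted p under 0.05 and 0 by DESeq2. In the cluster Polydendrocyte/Oligodendrocyte 0 of 15 were called by edgeR (1.24%), with 6 at an unadjusted p under 0.05 and 0 by DESeq2. Without a filter on low counts edgeR called 11 in endothelium, 4 in Nxph1+ interneurons and 5 in the polydendrocyte cluster, and DESeq2 called 4 in endothelium. The shares of all genes above belong to the filtered edgeR fit, and none is given for these settings. The 2 of endothelium were 0 without batch 1 or without batch 2. The ligands Ntn4 and Sema6d and the receptors Dcc, Nrp1, Robo1, Robo2 and Unc5c were each called in 5 clusters. Ntn4 was tested in 5, Nrp1 in 7, Dcc in 9 and the others in 8 each. The calls of Ntn4 include Drd2+ neurons, where it passed the filter only through NOD/ShiLtJ. They also include endothelium, where the call was lost without batch 1 or without batch 2. Those of Nrp1 include macrophages, where passing the filter was not checked. A list of other genes of these pathways, binding partners and effectors chosen with earlier results of these data known, had 34 of 49 tested genes called in Drd1+ neurons (61.7% of all genes), 34 of 49 in Drd2+ neurons (55.9%), 25 of 39 in oligodendrocytes (34.8%) and 17 of 39 in astrocytes (21.5%). It had 7 of 16 in macrophages (24.8%), 7 of 38 in the second Drd1+ cluster (17.3%) and 1 of 28 in endothelium (3.23%). In Nxph1+ interneurons 0 of 33 were called by edgeR (1.53%), and in the polydendrocyte cluster 0 of 26 (1.24%).

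Contrasts of single strains with the average of the remaining 7 were taken in Drd1+ neurons, whose libraries held 1710451 to 9416806 counts. PWK/PhJ differed in 16 members (34.3% of all genes), 4 higher and 12 lower, where 17% of all genes were higher and 17.3% lower. CAST/EiJ differed in 14 (32.8%), 4 higher and 10 lower, where 16.8% were higher and 15.9% lower, and the median log2 fold change was -0.20 over the members and -0.00 over all genes. In these 2 strains more members were lower than higher. NOD/ShiLtJ differed in 13 members (15.9%), 9 higher (9.4%) and 4 lower (6.48%). NZO/HlLtJ differed in 12 (19.7%), 9 higher (11%) and 3 lower (8.74%), and WSB/EiJ also in 12 (17%), 8 higher (9.66%) and 4 lower (7.3%). For 129S1/SvImJ it was 9 (12.3%), 7 higher (7.72%) and 2 lower (4.58%), for C57BL/6 8 (13.9%), 5 higher (8.01%) and 3 lower (5.93%), and for A/J 7 (17.2%), 4 higher (10.6%) and 3 lower (6.66%). Without batch 3 the count of WSB/EiJ was 7. Without a filter on low counts it was 14 for 129S1/SvImJ, 16 for A/J, 10 for C57BL/6 and 15 for WSB/EiJ, and with an absolute log2 fold change of 1 also required it was 1 and 2 for them, 3 for C57BL/6 and 2 for WSB/EiJ, so the order of these strains rests on the filter and the fold. Shares of all genes are not given for these other settings, so their member counts are not set against all genes.

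Among ligands in Drd1+ neurons, netrin-4, a netrin that binds laminins of the basement membrane, had the largest F of the strain term. NOD/ShiLtJ was at the upper end: Ntn4 was at 35.2, 34.1, 39.8 and 45.3 CPM in its mice of batches 1 to 4 and ranged from 0 to 23.1 (median 10.2) in the other 28. The NOD/ShiLtJ mice lay above all others, with a log2 fold change of 3.02 ± 0.17 (SE; edgeR adjusted p = 1.49e-18). That contrast averages the other strains on the log2 scale, where the near absence of Ntn4 in C57BL/6 weighs heavily. In CPM the means were 38.6 in NOD/ShiLtJ and 9.61 in the other mice. Ntn4 was called higher in 129S1/SvImJ, A/J, NZO/HlLtJ and WSB/EiJ as well, and is part of their counts above. Markers of the second Drd1+ cluster, which held more Ntn4 (61.1 ± 5.07 CPM) than Drd1+ neurons (13.1 ± 2.32), were also highest in Drd1+ nuclei of NOD/ShiLtJ, with a sum of 41.8 CPM, against 11.004 to 37.7 in the remaining strains and 13.6 in C57BL/6. Their part in the result was not tested. At the lower end, C57BL/6 had 1 count in its 4 mice against 1347 in the other 28, a ratio of 188 with a 95% exact interval of 33.6 to 7411 that covers counting error only. PWK/PhJ was also low, at 1.12, 0.693, 1.68 and 1.23 CPM (-2.71 ± 0.67, edgeR adjusted p = 0.00128), and all 4 lay inside the range of 0 to 45.3 of the other mice.

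Sema3d, a secreted semaphorin, was near the limit of detection except in PWK/PhJ, whose mice had 23.5, 22.5, 21.0 and 27.98 CPM. The other 28 mice ranged from 0 to 4.76 with a median of 1.30. The groups did not overlap, and the log2 fold change was 3.84 ± 0.21 (edgeR adjusted p = 2.49e-19). Markers of polydendrocytes, the cluster with most Sema3d, summed to 34.7 CPM in Drd1+ nuclei of PWK/PhJ, within the 15.8 to 43.2 of all strains; their part in the result was not tested.

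Sema3e, the Plxnd1 ligand, was lower in CAST/EiJ: 51.2, 39.2, 27.6 and 36.8 CPM against 94.8 to 195 (median 119) in the other mice. All 4 lay below the other 28 (-1.63 ± 0.14, edgeR adjusted p = 2.23e-09). Plxnd1 itself was lower in the same strain, at 15.04, 12.0, 10.8 and 13.1 CPM against 17.7 to 38.0 (median 25.7), again without overlap (-1.01 ± 0.13, edgeR adjusted p = 2.63e-08). Ligand and receptor were thus both at their lowest in CAST/EiJ mice.

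Ntng1 was lower in NOD/ShiLtJ, at 7.57, 12.8, 10.8 and 19.6 CPM, than in all other mice, which ranged from 22.3 to 147 (median 62.3). The log2 fold change was -2.11 ± 0.28 (edgeR adjusted p = 1.07e-05). Markers of the second Drd1+ cluster, where Ntng1 is highest, were at their highest sum in this strain, as given for Ntn4. Sema4a, a membrane-bound semaphorin, was higher in NOD/ShiLtJ (19.6, 16.2, 25.6 and 17.2 CPM) than in all other mice (2.42 to 14.2, median 9.26), by 1.16 ± 0.15 on the log2 scale (edgeR adjusted p = 5.39e-08). It too was higher in the second Drd1+ cluster (27.4 ± 1.88 CPM) than in Drd1+ neurons (10.3 ± 0.91), so the same marker sum moved with it, and its part was not tested.

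The Slits changed in several strains. Slit2 was lower in CAST/EiJ, at 9.24, 11.7, 3.24 and 18.8 CPM against 17.9 to 97.1 (median 51.6), with 1 mouse inside the range of the others (-2.20 ± 0.33, edgeR adjusted p = 1.42e-05). Slit1 was at 20.5, 18.9, 21.6 and 20.6 CPM in NOD/ShiLtJ and at 2.10 to 29.2 (median 10.8) elsewhere, a called rise of 1.18 ± 0.19 with overlap (edgeR adjusted p = 1.35e-05). It was lower in C57BL/6 (2.87, 3.59, 4.10 and 6.48 CPM; -1.46 ± 0.26, edgeR adjusted p = 9.14e-05).

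Sema3a was lower in A/J (52.7, 45.4, 53.2 and 49.5 CPM) and in NZO/HlLtJ (52.8, 81.3, 38.8 and 46.2) than in most other mice. The mice outside A/J ranged from 38.8 to 221 with a median of 134, and the contrast of A/J was -1.28 ± 0.15 (edgeR adjusted p = 1.65e-06). Its highest mean was in 129S1/SvImJ, 191 ± 35.1 (SD, n = 4). Sema6d was lower in CAST/EiJ, at 169, 175, 132 and 142 CPM, than the range of 172 to 438 (median 319) elsewhere, with which 1 mouse overlapped (-1.03 ± 0.10, edgeR adjusted p = 1.29e-09).

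**Figure D3:**
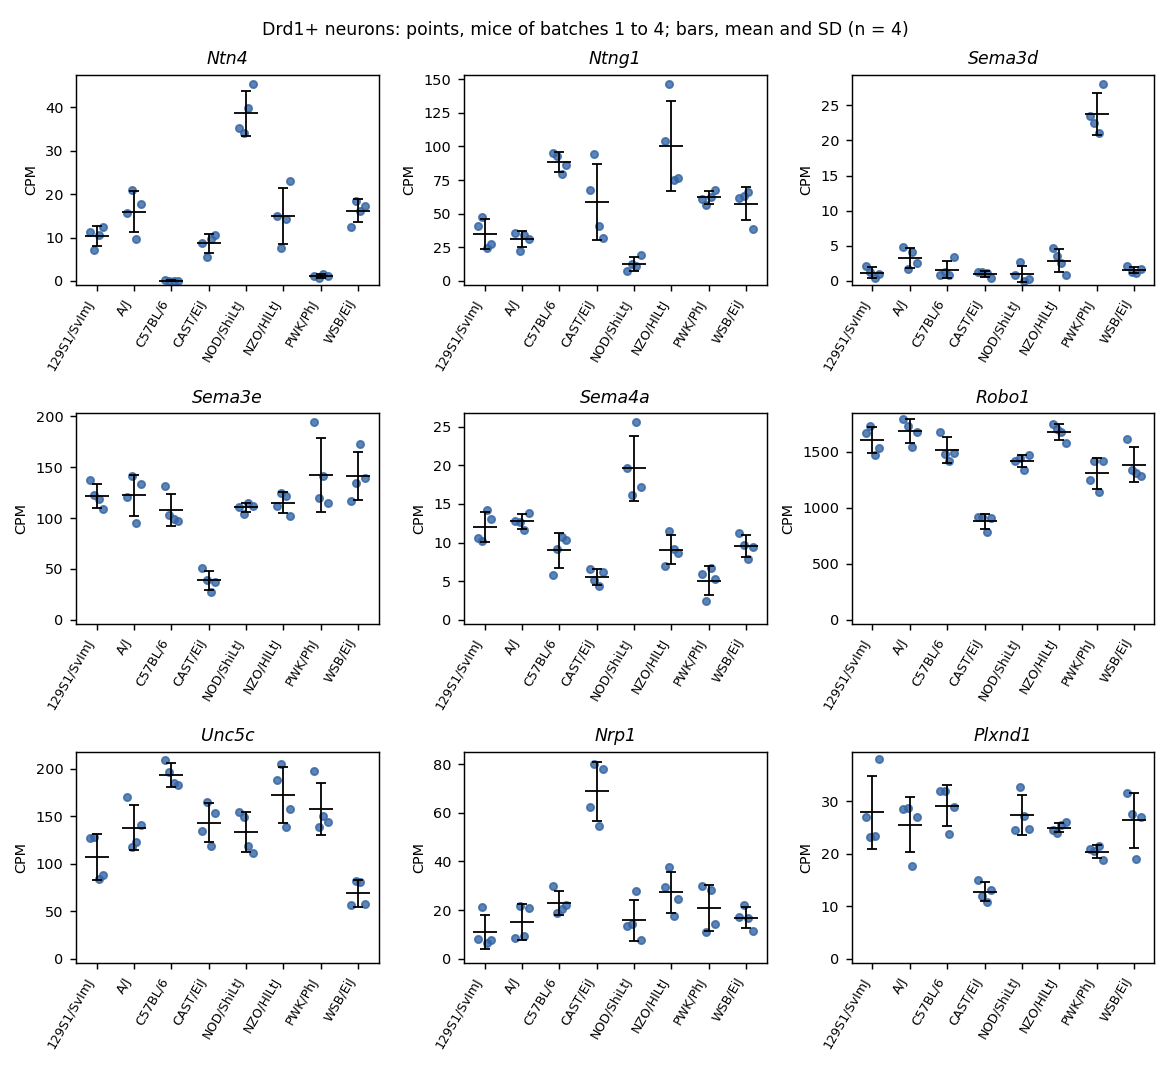
CPM per mouse in Drd1+ neurons by strain for Ntn4, Ntng1, Sema3d, Sema3e, Sema4a, Robo1, Unc5c, Nrp1 and Plxnd1; points are the 4 mice of a strain, with their mean and SD. PWK/PhJ stands apart for Sema3d, NOD/ShiLtJ for Ntn4, Ntng1 and Sema4a, WSB/EiJ for Unc5c, and CAST/EiJ for Sema3e, Robo1, Nrp1 and Plxnd1.

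Among receptors, CAST/EiJ, which differed in 32.8% of all genes in Drd1+ neurons, lay wholly outside the other mice in Robo1 and Nrp1, as in Plxnd1. Robo1 was at 914, 917, 781 and 903 CPM there and at 1139 to 1790 (median 1481) in the other 28 mice, without overlap (-0.78 ± 0.05, edgeR adjusted p = 1.69e-16). Nrp1, which binds class 3 semaphorins and VEGF, was at 62.6, 79.9, 54.6 and 78.0 CPM in CAST/EiJ and at 6.33 to 37.8 (median 18.3) elsewhere. All 4 CAST/EiJ mice lay above the others, by 1.95 ± 0.23 on the log2 scale (edgeR adjusted p = 5.97e-07). Markers of the second Drd1+ cluster, with Nrp1 at 42.6 ± 4.55 CPM, summed to 37.7 CPM in Drd1+ and 38.6 in Drd2+ nuclei of CAST/EiJ, the second highest and the highest of the strains, and their part in Nrp1 was not tested. Unc5c was lower in WSB/EiJ, at 56.2, 81.3, 80.5 and 57.3 CPM, against 83.9 to 210 (median 146), also without overlap (-1.11 ± 0.12, edgeR adjusted p = 2.44e-07).

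Smaller differences were called in Plxna4, which was higher in WSB/EiJ (138, 179, 127 and 143 CPM against 65.7 to 162, median 98.3; 0.54 ± 0.07, edgeR adjusted p = 7.91e-07). Neo1 was lower in PWK/PhJ (88.9, 84.5, 73.7 and 97.2 CPM against 89.2 to 151, median 118; -0.45 ± 0.06, edgeR adjusted p = 8.07e-08). Both overlapped with the other mice. Strain means of Dcc spanned a narrow range, from 3007 CPM in WSB/EiJ to 3802 in CAST/EiJ. Nrp2 and Unc5d were among the 9 tested members not called in Drd1+ neurons (edgeR adjusted p = 0.355 for Unc5d).

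In Drd2+ neurons, with 1251786 to 6803437 counts per library, PWK/PhJ differed in 18 members (30.3% of all genes), CAST/EiJ in 15 (28.1%), NZO/HlLtJ in 15 (18.5%), NOD/ShiLtJ in 12 (12.1%), WSB/EiJ in 12 (15.3%), C57BL/6 in 8 (11.1%), 129S1/SvImJ in 7 (11.1%) and A/J in 6 (15.2%). Of the 15 of NZO/HlLtJ, 12 were higher and 3 lower, where 10.8% and 7.72% of all genes were. Of all 50 calls of a member as higher in a strain in Drd2+ neurons, 2 were of members that passed the low-count filter only through that strain (Sema3d in PWK/PhJ and Ntn4 in NOD/ShiLtJ), as were 4 of 34 in oligodendrocytes, 0 of 50 in Drd1+ neurons and 0 of 9 in astrocytes. The other tested clusters were not checked in this way. The fits of Drd1+ and Drd2+ neurons share the same mice, so their values are given side by side. Sema3d was again high in PWK/PhJ (9.53, 19.7, 14.5 and 24.4 CPM) and at 0 to 2.57 (median 0.755) elsewhere. None of the other 28 mice reached the 4.12 CPM that the low-count filter asks of 4 mice, so Sema3d entered the fit only through PWK/PhJ and had to differ, and its contrast is given with no test (log2 fold change 4.34 ± 0.26). Slit2 was lower in CAST/EiJ (10.4, 9.35, 6.35 and 17.8 CPM against 21.8 to 108, median 62.9; -2.44 ± 0.31, edgeR adjusted p = 2.17e-06). In neither gene did the groups overlap.

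NOD/ShiLtJ lay outside the other mice in Sema4a, Plxnb1 and Ntng1. The share of all genes without such overlap is not given here. Sema4a was higher (13.7, 13.1, 16.03 and 17.5 CPM against 1.53 to 11.4, median 6.19; 1.35 ± 0.17, edgeR adjusted p = 7.16e-08), and so was Plxnb1, a receptor of class 4 semaphorins (6.37, 6.399, 6.53 and 9.06 CPM against 0.794 to 5.20, median 3.24; 1.11 ± 0.23, edgeR adjusted p = 0.000427). Ntng1 was lower (44.1, 50.2, 61.2 and 60.9 CPM against 82.0 to 273, median 137; -1.35 ± 0.16, edgeR adjusted p = 1.96e-06). NZO/HlLtJ lay above the other mice in Sema6d (377, 425, 401 and 316 CPM against 116 to 306, median 229; 0.80 ± 0.10, edgeR adjusted p = 4.93e-06). Markers of polydendrocytes, the cluster second in Sema6d (767 ± 78.5 CPM), summed to 58.1 CPM in Drd2+ nuclei of NZO/HlLtJ, the most of any strain. CAST/EiJ was at 53.6 and the lowest strain at 23.3. Markers of the second Drd1+ cluster, the highest in Sema6d (1003 ± 84.5 CPM), summed to 17.7 in NZO/HlLtJ, within the 10.4 to 38.6 of all strains. Projection neuron markers summed to 3928 in NZO/HlLtJ, the least (5174 in the highest). The part of all these markers was not tested. NZO/HlLtJ lay above the other mice in the netrin receptor Neo1 too (143, 150, 140 and 141 CPM against 78.5 to 123, median 109; edgeR adjusted p = 7.51e-08).

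CAST/EiJ again had more Nrp1 (79.4, 87.6, 81.8 and 81.6 CPM against 10.3 to 57.5, median 28.4; 1.71 ± 0.11, edgeR adjusted p = 1.12e-16) and less Robo1 (936, 964, 852 and 929 CPM against 1210 to 1945, median 1534; -0.79 ± 0.06, edgeR adjusted p = 2.64e-16) than all other mice. Unc5d, the gene that separates the pathways, varied between strains here: it was lower in CAST/EiJ (119, 116, 90.5 and 119 CPM against 112 to 359, median 204; -0.85 ± 0.12, edgeR adjusted p = 2.57e-06) and highest in NZO/HlLtJ, 302 ± 52.9 (SD, n = 4), and 3 of the 4 CAST/EiJ mice lay inside the range of the others. Sema3a was lower in A/J (33.9, 24.0, 27.9 and 27.5 CPM against 23.2 to 247, median 136; -1.87 ± 0.16, edgeR adjusted p = 7.83e-09). NOD/ShiLtJ mice were low in Sema3a as well, with a contrast of -1.51 ± 0.16, and C57BL/6 mice were high, with 1.35 ± 0.12.

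In oligodendrocytes the netrin receptor Unc5d set PWK/PhJ apart. It was at 418, 365, 365 and 282 CPM in PWK/PhJ oligodendrocytes and at 0 to 30.0 (median 10.3) in the other 28 mice. The PWK/PhJ mice lay far above all others, with a log2 fold change of 5.30 ± 0.17 (edgeR adjusted p = 7.54e-29), from 730 counts. In the same strain Unc5d was at 35.8 ± 29.2 CPM in astrocytes, 14.7 ± 11.7 in macrophages, 6.09 ± 4.01 in Drd1+ neurons and 135 ± 31.1 in Drd2+ neurons (SD, n = 4), where WSB/EiJ was at 285 ± 20.9. Drd2+ neuron markers summed to 231 CPM in PWK/PhJ oligodendrocytes, the lowest of the strains, which reached 260, and the projection neuron markers were also lowest there (284 against up to 328). Interneuron markers summed to 145 to 289 CPM by strain (231 in PWK/PhJ), of which Kit was at 89.4 in PWK/PhJ, 152 in CAST/EiJ and 11.6 to 42.4 in the remaining strains. The part of these markers in Unc5d was not tested.

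Both Robo receptors tested in oligodendrocytes were called. Robo1 was lower in PWK/PhJ, at 104, 113, 48.6 and 115 CPM against 177 to 843 (median 412) in the other mice (-2.02 ± 0.13, edgeR adjusted p = 1.77e-17). It was higher in WSB/EiJ, at 843, 749, 731 and 689 CPM against 48.6 to 670 (median 349; 1.24 ± 0.09, edgeR adjusted p = 5.01e-16). For Robo1 neither strain overlapped with the rest. Robo2 was higher in 129S1/SvImJ, at 76.1, 74.3, 105.7 and 124 CPM against 9.61 to 81.0 (median 36.2; 1.51 ± 0.17, edgeR adjusted p = 6.18e-09), with 2 mice inside the range of the others. Dcc was lower in CAST/EiJ (73.1, 95.6, 62.4 and 63.6 CPM; -2.25 ± 0.20, edgeR adjusted p = 3.03e-09) and PWK/PhJ (63.2, 93.0, 72.9 and 134) and higher in 129S1/SvImJ (653, 768, 574 and 573), a range of strain means from 73.7 to 642. Unc5c, at its highest level in this cell type, was lower in PWK/PhJ (792, 788, 978 and 709 CPM against 1016 to 1715, median 1306; -0.70 ± 0.08, edgeR adjusted p = 3.35e-11). Nrp2 had 4 counts in the 4 CAST/EiJ mice and reached 55.4, 43.1, 48.6 and 40.6 CPM in PWK/PhJ, above the range of 0 to 39.9 (median 22.9) elsewhere (1.51 ± 0.22, edgeR adjusted p = 2.87e-08).

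Among oligodendrocyte ligands the strain that stood apart differed from gene to gene. Sema3d was higher in 129S1/SvImJ (123, 149, 148 and 167 CPM against 0 to 66.8, median 19.98; 2.93 ± 0.15, edgeR adjusted p = 9.3e-30). PWK/PhJ, the high strain of Sema3d in projection neurons, was at 45.1 ± 14.7 CPM here (0.83 ± 0.23, edgeR adjusted p = 0.00523). Slit2 was higher in NOD/ShiLtJ (40.8, 33.0, 45.8 and 28.3 CPM against 0 to 25.2, median 5.48; 2.80 ± 0.25). Sema3c was higher in WSB/EiJ (29.8, 34.5, 19.1 and 19.97 CPM against 0 to 18.2, median 5.31; 2.18 ± 0.31). The low-count filter asks for 16.9 CPM in 4 mice, which 3 mice outside NOD/ShiLtJ reached for Slit2 and 1 outside WSB/EiJ for Sema3c. Both ligands thus entered the fit only through the strain in which they were high and had to differ, so no test is given for them. In Sema3d, Slit2 and Sema3c no mouse of the strain overlapped with the other 28. Sema5a ranged from 60.1 ± 20.8 CPM in C57BL/6 to 289 ± 47.1 in 129S1/SvImJ (SD, n = 4). Of all 23 members tested in oligodendrocytes, 13 differed in PWK/PhJ (15.7% of all genes), 6 higher (7.39%) and 7 lower (8.32%). It was 9 in 129S1/SvImJ (7.29%), 7 in WSB/EiJ (10.1%), 5 in CAST/EiJ (17%) and 6 each in A/J (8%), C57BL/6 (8.24%), NOD/ShiLtJ (9.4%) and NZO/HlLtJ (8.19%). These counts hold 4 calls of members that passed the low-count filter only through that strain. They were Sema3e in 129S1/SvImJ, Sema3c in WSB/EiJ, Slit2 in NOD/ShiLtJ and Plxna2 in NZO/HlLtJ. Libraries held 165465 to 1883033 counts.

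In astrocytes, with 38252 to 1085998 counts per library, PWK/PhJ differed in 7 members (8.94% of all genes), 6 lower (4.17%) and 1 higher (4.78%). C57BL/6 differed in 4 (3.36%), CAST/EiJ in 3 (9.64%), NZO/HlLtJ in 2 (4.8%) and 129S1/SvImJ, A/J and WSB/EiJ in 1 each (2.51%, 3.14% and 3.28%). In NOD/ShiLtJ 0 members were called by edgeR (3.96%). Ntn4 was not low in C57BL/6 here: its mice had 32.4, 56.7, 13.7 and 45.6 CPM, and the others 0 to 43.1 with a median of 14.2. That strain had the highest mean (1.60 ± 0.32, edgeR adjusted p = 0.000374), with overlap, from 48 counts, where Drd1+ neurons of the same mice had 1. PWK/PhJ had 1 Ntn4 count in astrocytes against 219 in the other mice, a ratio of 23.4 with a 95% exact interval of 4.15 to 928. Whether the strain effect differed between astrocytes and Drd1+ neurons was not tested.

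Of the 6 members lower in PWK/PhJ astrocytes, Ntn4 and Sema4d are ligands and Dcc, Unc5c, Robo2 and Plxnc1 receptors. Dcc was at 82.3, 178, 106 and 131 CPM against 159 to 582 (median 358), with 1 mouse inside the range of the others (-1.49 ± 0.23, edgeR adjusted p = 4.08e-05). Unc5c was at 28.5 ± 25.3 CPM (SD, n = 4) in PWK/PhJ and 271 ± 79.5 in A/J (contrast of PWK/PhJ -1.97 ± 0.41, edgeR adjusted p = 0.00211). Robo2 was at 38.7 ± 26.3 in PWK/PhJ and 53.5 ± 42.7 in CAST/EiJ, with 323 ± 60.3 in WSB/EiJ (contrast of PWK/PhJ -1.46 ± 0.33, edgeR adjusted p = 0.00472). Beside these, projection neuron markers summed to 272 CPM in PWK/PhJ astrocytes, the lowest, and to 525 in the highest strain, and polydendrocyte markers to 23.1 in PWK/PhJ and 73.2 in C57BL/6; their part in these results was not tested. The 1 member higher in PWK/PhJ astrocytes was the receptor Nrp1 (117, 89.2, 106 and 138 CPM against 0 to 125, median 63.2; 0.84 ± 0.19, edgeR adjusted p = 0.000658), with overlap. Nrp1 was lower in CAST/EiJ astrocytes (33.4, 47.0, 0 and 47.9 CPM against 33.9 to 138, median 71.9; -0.89 ± 0.23, edgeR adjusted p = 0.00493), with overlap, while in both projection neuron clusters CAST/EiJ was the highest strain.

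Macrophages, with 27325 to 365425 counts per library, fell into high and low strains for Nrp1. NZO/HlLtJ mice had 381, 295, 426 and 359 CPM, C57BL/6 mice 354, 230, 196 and 345, and NOD/ShiLtJ mice 215, 286, 283 and 259. The remaining 5 strains had means of 10.2 to 31.2, which are few counts at a median of 113960 counts per library. The strain term called Nrp1. Whether Nrp1 passed the low-count filter only through its high strains was not checked in macrophages, so no p-value is given for it. Endothelium, which also holds Nrp1, had a marker sum of 362 CPM in CAST/EiJ macrophages, 210 in NZO/HlLtJ, 172 in PWK/PhJ and 53.1 to 72.2 in the remaining strains, mostly through Pecam1 (Flt1 was at 2.45 to 17.6). The part of these markers in Nrp1 was not tested.

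Plxna4 was lower in PWK/PhJ macrophages: 78.6, 200, 150 and 90.3 CPM against 442 to 924 (median 657) in the other 28 mice, with no overlap (strain term, edgeR adjusted p = 1.14e-19). Nrp2 ranged from 15.4 ± 18.2 CPM in CAST/EiJ, with 5 counts, to 102 ± 59.3 in C57BL/6 (SD, n = 4; strain term, edgeR adjusted p = 8.06e-04). That call was lost without batch 2, at an edgeR adjusted p of 0.0830. Which strains carried Nrp2 through the low-count filter was not checked either.

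In the second Drd1+ cluster Unc5c reached 680, 364, 786 and 552 CPM in C57BL/6, and its means were 85.2 ± 41.0 in WSB/EiJ and 101 ± 27.6 in NOD/ShiLtJ (SD, n = 4; strain term, edgeR adjusted p = 8.52e-15). Ntng1 was lowest in NOD/ShiLtJ here too, at 478 ± 57.2, and highest in C57BL/6, at 1022 ± 68.7 (1.89e-10). Sema6a ranged from 36.2 ± 8.65 in PWK/PhJ to 163 ± 26.5 in WSB/EiJ (1.26e-06), Sema6d from 678 ± 114 in PWK/PhJ to 1424 ± 270 in NZO/HlLtJ (7.35e-09), and Robo1 from 3026 ± 55.5 in CAST/EiJ to 4702 ± 181 in NZO/HlLtJ (4.77e-07). Ntn4 was lowest in C57BL/6, at 38.5 ± 6.76, and highest in NOD/ShiLtJ, at 111 ± 21.7 (8.38e-06). The lowest and the highest strain of Ntn4 were the same as in Drd1+ neurons.

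In endothelium 29 mice had enough nuclei. Ntn4 ranged from 8.98 ± 10.5 CPM in PWK/PhJ, with 4 counts, to 102 ± 49.0 in 129S1/SvImJ (SD, n = 4; strain term, edgeR adjusted p = 0.00916), and Sema5a from 8.04 ± 8.44 in CAST/EiJ to 108 ± 52.6 in WSB/EiJ (SD, n = 3 each; edgeR adjusted p = 0.00363). Both calls were lost without batch 1 (edgeR adjusted p = 0.118 and 0.240) and without batch 2 (0.157 and 0.177), and then 0 members were called by edgeR in endothelium. Whether Ntn4 and Sema5a passed the low-count filter only through their high strains was not checked in endothelium.

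**Figure D4:**
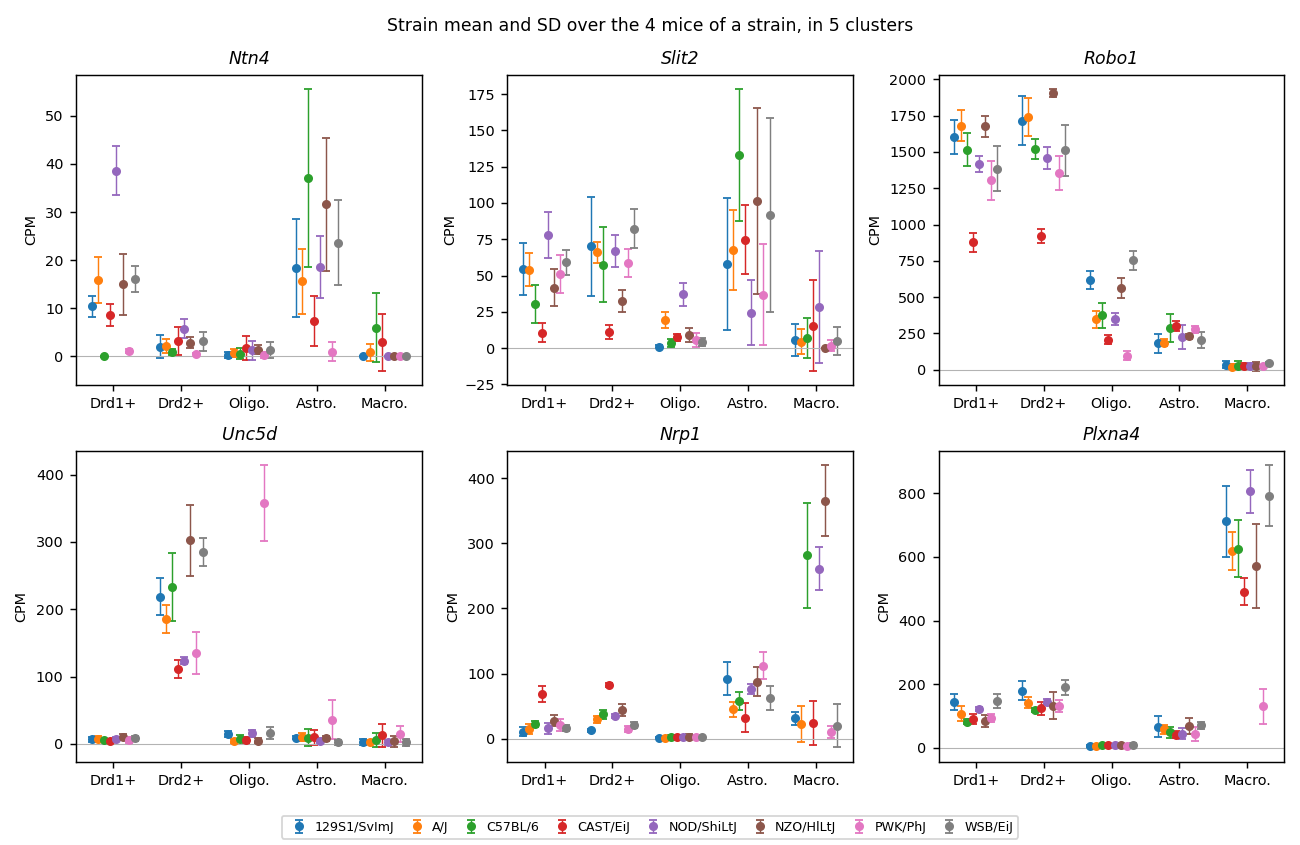
Strain means of CPM with SD over 4 mice in Drd1+ neurons, Drd2+ neurons, oligodendrocytes, astrocytes and macrophages for Ntn4, Slit2, Robo1, Unc5d, Nrp1 and Plxna4. Unc5d of PWK/PhJ is high in oligodendrocytes, Nrp1 of NZO/HlLtJ, C57BL/6 and NOD/ShiLtJ is high in macrophages, and Plxna4 of PWK/PhJ is low in macrophages.

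An interaction of strain and cluster, taken within mice by a block per mouse, asked if strain acts unequally on the projection neurons of both pathways (edgeR quasi-likelihood F test, Benjamini-Hochberg over all genes). It was called for 17 of 41 members, where 4.58% of all genes were called, and the median F was 2.26 over members and 1.01 over all genes. The count rests on the block and on single batches: it was 2 without the block, 9 without batch 2 and 5 without batch 4. The share of all genes called in those fits is not given, so the fall is not set against theirs. Of 49 other genes of the pathways 6 were called by the full fit with the block.

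Ntng1 had the largest interaction F of the members (edgeR adjusted p = 1.81e-09). Its log2 difference, Drd2+ minus Drd1+, was 2.11 ± 0.40 in NOD/ShiLtJ and 0.71 ± 0.08 in C57BL/6 (SD, n = 4). The strain with the least Ntng1 in both clusters thus had the widest gap between them. For Sema3e it was 2.03 ± 0.47 in CAST/EiJ, the widest, and 0.70 ± 0.20 in NOD/ShiLtJ, the narrowest (edgeR adjusted p = 0.000260), and the difference was positive in all 32 mice. Sema3a was nearly level in C57BL/6 (0.12 ± 0.11) and lower in Drd2+ neurons of NOD/ShiLtJ (-1.17 ± 0.28) and A/J (-0.79 ± 0.13; edgeR adjusted p = 0.000336).

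The Slits Slit3 (0.33 ± 0.08 in NZO/HlLtJ, 0.12 ± 0.08 in PWK/PhJ; edgeR adjusted p = 0.000902) and Slit2 (0.90 ± 0.32 in C57BL/6, -0.32 ± 0.33 in NZO/HlLtJ; edgeR adjusted p = 0.0361) were also called. Of the membrane-bound semaphorins, Sema5a ranged from 2.83 ± 0.83 in WSB/EiJ to 0.86 ± 0.81 in NOD/ShiLtJ (edgeR adjusted p = 0.00121), Sema5b from 0.81 ± 0.35 in PWK/PhJ to -0.40 ± 0.33 in WSB/EiJ (0.00266) and Sema6d from 0.02 ± 0.42 in CAST/EiJ to -0.53 ± 0.20 in C57BL/6 (0.0420). Sema5a averaged only 2.68 CPM in Drd1+ neurons. Receptors among these 10 members were Unc5c (1.83 ± 0.21 in NOD/ShiLtJ, 1.34 ± 0.04 in NZO/HlLtJ; edgeR adjusted p = 0.00112) and Plxna2 (-0.24 ± 0.16 in NZO/HlLtJ, -0.62 ± 0.08 in 129S1/SvImJ; 0.000130). Ntn4, Ntn1, Robo1, Robo3, Dcc, Nrp2 and Plxna4 were the other 7 called members. Without the block, Sema3a and Sema5a stayed called, and the edgeR adjusted p of the other 8 described here rose to between 0.0733 (Sema3e) and 1 (Unc5c, Plxna2, Slit3 and Slit2). Leaving out batch 4 took the calls of Sema3a (0.0544), Sema3e (0.0572), Unc5c (0.138) and Sema5b (0.129), leaving out batch 1 that of Plxna2 (0.0923) and leaving out batch 2 that of Sema5a (0.0974). Slit2 was lost without batch 2, 3 or 4 (0.174 to 0.271) and Sema6d without each of the 4 batches (0.0688 to 0.399). Markers of the second Drd1+ cluster, where Ntng1, Sema3e, Sema3a, Sema5b and Sema6d are highest, summed to 41.8 CPM in Drd1+ and 17.6 in Drd2+ nuclei of NOD/ShiLtJ, and to 12.9 and 27.4 in PWK/PhJ. They moved with the narrow gap of Sema3e and the low Sema3a difference in NOD/ShiLtJ and with the Sema5b difference in PWK/PhJ. They moved against the wide gap of Ntng1 in NOD/ShiLtJ. In CAST/EiJ, with the widest gap of Sema3e, they were nearly level (37.7 and 38.6). In C57BL/6 they rose from 13.6 to 20.7, with the highest Sema3a difference but the lowest of Ntng1 and Sema6d. In WSB/EiJ they rose from 11.004 to 14.2, with the lowest Sema5b difference. Their part was not tested. Drd2+ neuron markers summed to 217 CPM in Drd1+ nuclei of A/J, 160 in PWK/PhJ and 99.0 to 127 in the remaining strains. Drd1+ neuron markers in Drd2+ nuclei summed to 54.7 to 80.1 by strain. The part of these markers in the interaction was not tested either.

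**Figure D5:**
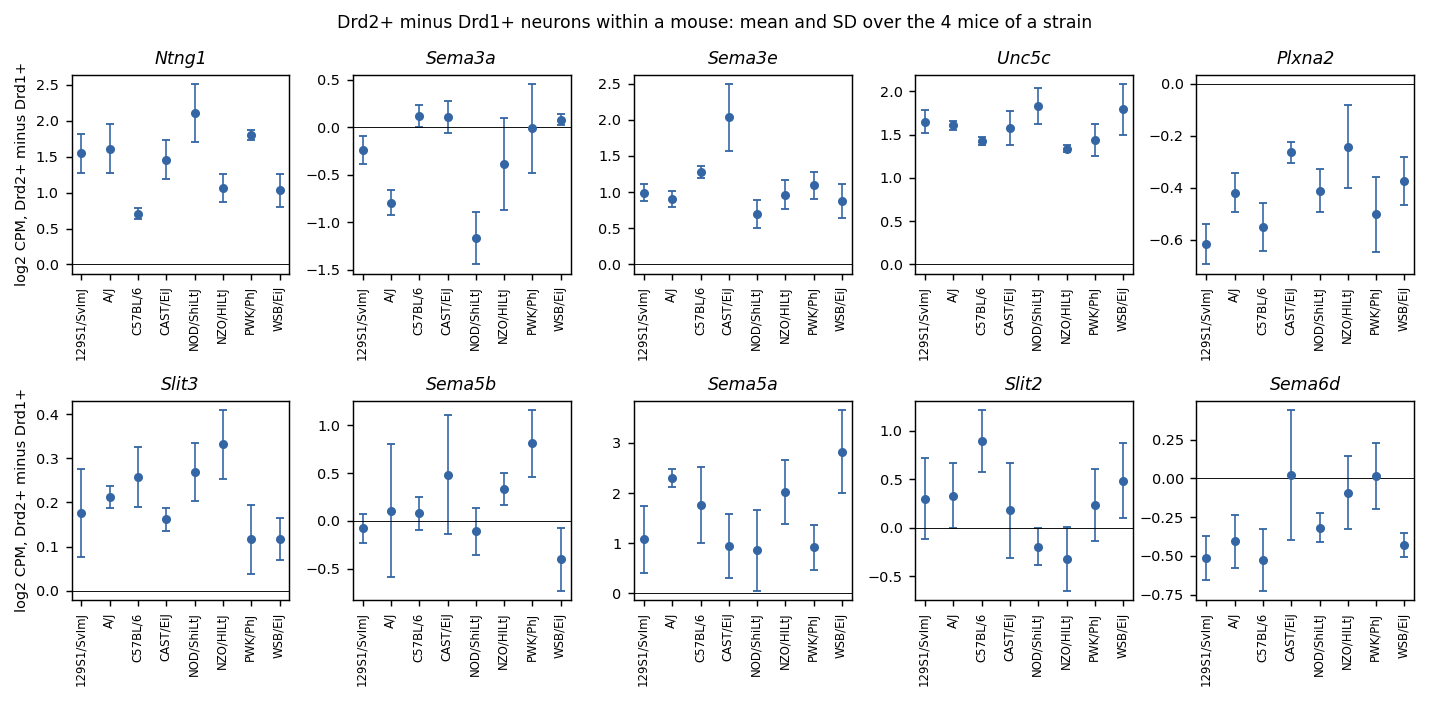
Difference of log2 CPM, Drd2+ minus Drd1+ neurons of the same mouse, as mean and SD over the 4 mice of each strain, for the 10 members with the largest interaction F among called ones. NOD/ShiLtJ has the largest difference for Ntng1 and the lowest for Sema3a, and CAST/EiJ the largest for Sema3e.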

How the data were processed

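Nuclear RNA of frozen striatum was counted in 4 pools of 8 mice. The deposited matrices hold raw UMI counts per gene and barcode. The deposited table holds categories, a value of another kind, per barcode: the authors assigned strains with Demuxlet, kept nuclei by detected genes and mitochondrial share, ran DoubletFinder and named the clusters; its calls were used unchanged. The authors' peak list gives positions only. The submitters' processing notes name Cell Ranger ARC 2.0.0, bcl2fastq 2.20.0.422 and the builds mm10 and GRCm38; annotation and strand use are not given in the sources used here. One reference served 8 strains, and equal alignment was not tested.

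Counts were summed per mouse (batch and strain) and cluster. Libraries of at least 10 nuclei were kept, clusters with at least 3 mice of every strain were tested (9 of 18), and genes were filtered with filterByExpr. edgeR 4.0.16 (R 4.3.3) fitted strain and batch with TMM scaling, Benjamini-Hochberg over all genes of a cluster, and called genes at an adjusted p under 0.05. The batch number pairs mice because the labels say that it marks a shared pool. CPM of mice are over TMM-scaled totals, those of clusters over plain totals; log2 CPM used a prior count of 2. The fits held no term for sex, which the labels do not give per mouse. P-values of the strain term and the contrasts set strain differences against the spread between mice left after batch, taken over all strains. Those of the interaction use the spread left after the block per mouse. Alternatives were RLE scaling, no filter, DESeq2 1.42.0, no replicate block, libraries of at least 20 nuclei, leaving out each batch, a log2 fold change of at least 1, and for levels other scaling, prior counts and larger clusters. The strain term and the contrasts in Drd1+ neurons, and the interaction, were tested on simulated data.

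Named members are those with at least 100 counts in their highest cluster; the 12 with the largest strain F in Drd1+ neurons and 5 in each other cluster, among called ones; those with 1 strain outside all other mice and a called contrast; and at most 10 by the interaction F. Ntn3, Robo3, Plxnc1, Plxna3 and Plxna4os1 are named beyond this rule, after their values were seen. Members and lists were chosen with earlier results of these data known.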

Additional observations from a re-analysis of the deposited data

Results flagged for a closer look

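In 6 of 96 groups of 4 mice of a strain, and in 2 of 36 groups of 4 batches, the highest or lowest value lay apart from the other 3 by Dixon's criterion at 95%, which chance reaches in about 1 of 20 groups. In Drd1+ neurons these were the mice of batch 1 for Ntn4 in C57BL/6 (0.221 CPM, the other 3 at 0), Robo1 in WSB/EiJ (1616 CPM), Sema3a in PWK/PhJ (159.9 CPM) and Sema3e in C57BL/6 (131 CPM). The others were the CAST/EiJ mouse of batch 3 for Robo1 (781 CPM) and the WSB/EiJ mouse of batch 4 for Ntng1 (38.9 CPM). Across batches, Unc5d in Sst+ interneurons stood at 917 CPM in batch 3 and Neo1 in oligodendrocytes at 462 CPM in batch 1.

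In the projection neurons of both pathways the interaction of strain and cluster within mice was called for 17 of 41 members, where 4.58% of all genes were called. For the 10 described in the report the edgeR adjusted p was 1.81e-09 for Ntng1, 0.000130 for Plxna2, 0.000260 for Sema3e, 0.000336 for Sema3a, 0.000902 for Slit3, 0.00112 for Unc5c, 0.00121 for Sema5a, 0.00266 for Sema5b, 0.0361 for Slit2 and 0.0420 for Sema6d. The 17 calls were 2 without the block and 5 without batch 4. Of the 10, Sema3a and Sema5a were still called without the block, and Ntng1 and Slit3 without any one batch. Sema3a, Sema3e, Unc5c and Sema5b lost the call without batch 4, Plxna2 without batch 1, Sema5a without batch 2, Slit2 without batch 2, 3 or 4, and Sema6d without each of the 4 batches.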

How the results depend on the processing

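Of the recomputed counts, 163 stayed near the count reported while 21 did not. Without a filter on low counts the strain term called 11 members in endothelium, 5 in the polydendrocyte cluster and 4 in Nxph1+ interneurons, and the contrasts of 129S1/SvImJ and A/J in Drd1+ neurons called 14 and 16; DESeq2 called 4 in endothelium. Leaving out 1 batch gave 0 to 3 members in endothelium (0 without batch 1 or 2), 0 to 1 in the polydendrocyte cluster, 7 to 10 for WSB/EiJ and 5 to 13 for the interaction. Where calls also had to reach an absolute log2 fold change of 1, the contrasts in Drd1+ neurons called 1 member for 129S1/SvImJ, 2 for A/J, 3 for C57BL/6, 8 for CAST/EiJ, 7 for NOD/ShiLtJ, 3 for NZO/HlLtJ, 5 for PWK/PhJ and 2 for WSB/EiJ. The interaction without the replicate block called 2 members; the block left the counts of the strain term and of the contrasts near those reported. The cause of these changes was not tested, and the share of all genes called under each alternative is not given. Of the recomputed results of named members, 464 kept their call, and 26 lost it. The F tests among them have no direction. Depth limits what could be tested: 12 members were too low in Drd1+ neurons, 14 in Drd2+ neurons and 29 to 46 in the other tested clusters.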
